A study of Mus musculus with 11 samples.

Results

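Expression of 10 genes of protein arginine methylation was followed across mouse small cell lung tumors kept on doxycycline, which drives a MYCN transgene, or taken off it. The genes were chosen by symbol: the methyltransferases Prmt1, Prmt2, Prmt3, Prmt5, Prmt6, Prmt7 and Carm1, the Prmt5 partners Wdr77 and Clns1a, and Mat2a, which makes the methyl donor. All 10 were present among the 23284 genes counted, and all 10 were among the 15237 genes that passed a filter on low counts and were tested. The study sequenced poly(A) RNA from 11 tumors of 1 genotype, which the labels give as Rb;p53, TRE-MYCN and LSL-RTTA. All tumors therefore carried the Rb and p53 alleles, MYCN under a promoter that doxycycline switches on (TRE-MYCN), and the transactivator that senses the drug, placed behind a loxP-flanked stop (LSL-RTTA). The 7 ONDOX tumors were taken while doxycycline was given, and the 4 OFFDOX tumors after 7 days without it. The age of the mice, the Cre that opens the stop and the species of the transgene are not given in the labels, nor is it stated that each tumor came from a separate mouse, so the tests use only how much these samples vary, which may be partly technical. No tumor without the transgene was given doxycycline, so effects of MYCN and of the drug cannot be told apart.

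Protein arginine methyltransferases move a methyl group from S-adenosylmethionine (SAM) to the side-chain nitrogens of arginine. Type I enzymes (Prmt1, Prmt2, Prmt3, Carm1, Prmt6) leave asymmetric dimethylarginine, the main type II enzyme, Prmt5, leaves symmetric dimethylarginine, and the type III enzyme Prmt7 leaves monomethylarginine. Their best known substrates are RNA-binding proteins with arginine-glycine repeats, the Sm proteins of the spliceosome and histone tails. Prmt5 works in a complex with Wdr77 (also called MEP50), while Clns1a (pICln) hands it the Sm proteins. Mat2a is the catalytic subunit of the methionine adenosyltransferase found outside the liver, which joins methionine and ATP into SAM. In MYC-driven lymphoma, Prmt5, Wdr77 and Clns1a have been described as genes that MYC raises.

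The start regions of these genes are shown because MYC family proteins bind the letters CACGTG, an E-box. RefSeq promoter windows, from 250 bases before to 50 bases after the annotated start, were found for 9 of the 10 genes. CACGTG, which reads the same on both strands, occurred in 4 of these 9 windows (44.4%), those of Prmt1, Prmt3, Clns1a and Wdr77. It occurred in 7.15% of all 32851 windows in the table and in 11.3% of the 10732 tested genes with a window. The related letters CACGCG, or CGCGTG on the other strand, occurred in 2 of the 9 windows (Prmt3 and Prmt7) and in 9.27% of all windows. These are matches of letters in a window, not binding sites. The 4 windows with CACGTG follow, each 5′ to 3′ on the strand of its gene with the E-box in capitals, and then that of Prmt5, which has none. The coordinates are of GRCm38.p6, whereas the counts were made on mm9, and nothing was converted between the builds. The windows are chr7:44986371-44986670 on the minus strand for Prmt1, chr7:49778108-49778407 on the plus strand for Prmt3, chr7:97696407-97696706 on the plus strand for Clns1a, chr3:105959248-105959547 on the plus strand for Wdr77 and chr14:54517421-54517720 on the minus strand for Prmt5.
Prmt1 promoter: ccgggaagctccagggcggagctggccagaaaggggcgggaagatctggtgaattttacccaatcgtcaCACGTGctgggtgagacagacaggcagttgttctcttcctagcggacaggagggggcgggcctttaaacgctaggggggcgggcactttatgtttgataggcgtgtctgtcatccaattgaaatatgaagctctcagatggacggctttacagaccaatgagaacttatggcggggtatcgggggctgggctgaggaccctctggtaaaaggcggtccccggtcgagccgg
Prmt3 promoter: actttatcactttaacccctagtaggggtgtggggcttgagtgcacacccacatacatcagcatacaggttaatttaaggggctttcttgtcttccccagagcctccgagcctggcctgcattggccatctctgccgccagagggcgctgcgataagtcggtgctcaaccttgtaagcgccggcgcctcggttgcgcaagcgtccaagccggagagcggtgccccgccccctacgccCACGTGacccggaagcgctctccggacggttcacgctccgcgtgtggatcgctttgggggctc
Clns1a promoter: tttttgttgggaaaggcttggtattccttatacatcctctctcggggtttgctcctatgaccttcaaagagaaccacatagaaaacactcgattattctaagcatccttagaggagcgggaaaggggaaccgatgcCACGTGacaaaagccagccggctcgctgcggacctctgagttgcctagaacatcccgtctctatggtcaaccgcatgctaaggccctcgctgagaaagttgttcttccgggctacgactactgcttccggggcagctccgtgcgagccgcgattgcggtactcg
Wdr77 promoter: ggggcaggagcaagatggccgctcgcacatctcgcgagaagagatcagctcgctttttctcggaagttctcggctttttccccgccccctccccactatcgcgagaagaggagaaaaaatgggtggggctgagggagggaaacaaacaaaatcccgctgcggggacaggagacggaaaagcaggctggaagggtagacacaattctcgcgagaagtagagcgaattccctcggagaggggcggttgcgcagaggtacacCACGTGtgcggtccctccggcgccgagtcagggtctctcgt
Prmt5 promoter: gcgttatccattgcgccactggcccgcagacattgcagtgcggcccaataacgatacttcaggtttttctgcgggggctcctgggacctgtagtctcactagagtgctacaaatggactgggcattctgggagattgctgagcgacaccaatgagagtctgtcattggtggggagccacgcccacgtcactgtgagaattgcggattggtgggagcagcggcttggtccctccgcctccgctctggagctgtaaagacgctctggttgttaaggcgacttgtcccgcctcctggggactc

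Counted from the annotated start, with its first base as 1, the E-box began at base -181 in Prmt1, -114 in Clns1a, -13 in Prmt3 and 10 in Wdr77. The windows of Prmt2, Prmt5, Prmt6, Prmt7 and Mat2a held no CACGTG. Among all tested genes with a window, 22.5% of the 1212 that held CACGTG and 16.2% of the 9520 that did not were called higher in ONDOX. The corresponding shares called lower were 10.1% and 13.6%.

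Library facts bear on what follows. Reads counted over genes ranged from 10324089 to 13123838 in ONDOX and from 8951733 to 12190957 in OFFDOX. Mycn, which checks the labels, was at 36.5 to 171 CPM (read counts divided by a TMM-scaled library size, the usual CPM unit) in ONDOX and at 5.63 to 15.7 CPM in OFFDOX. Neuroendocrine markers summed to 2931 to 4509 CPM in ONDOX and 1909 to 8516 CPM in OFFDOX, and each of the 11 markers passed the filter. Markers of other cells were uneven. For the counts of called markers below, 13.4% of all genes tested were called lower in ONDOX and 16.0% higher. Alveolar and club cell markers (4 of 13 tested lower in ONDOX) summed to 62.8 to 3505 CPM in ONDOX and 152 to 33715 CPM in OFFDOX. Immune markers (7 of 11 tested lower) summed to 143 to 668 CPM and 236 to 5385 CPM. Endothelial markers (2 of 5 lower) summed to 76.0 to 375 CPM and 152 to 780 CPM, and fibroblast markers (0 of 7 called by edgeR, 2 at an unadjusted p below 0.05) to 392 to 1694 CPM and 422 to 2432 CPM. None of these markers was at 0 in every tumor. Proliferation markers (4 of 9 higher) summed to 2917 to 5521 CPM in ONDOX, to 3930 CPM in OFFDOX tumor 2 and to 837 to 2452 CPM in the other OFFDOX tumors. Tumors with Sftpc, the surfactant gene of alveolar cells, above 100 CPM are called lung-containing here: ONDOX tumors 3 and 5 and OFFDOX tumors 1, 3 and 4. OFFDOX tumor 2 was the only lung-poor OFFDOX tumor, and its skeletal muscle markers reached 487 CPM against at most 18.4 CPM in the other OFFDOX tumors. In bulk tumors, fewer cells of a type and less RNA per cell cannot be told apart.

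Arginine methylation genes were mostly higher in ONDOX. Of the 10 genes, 8 were called higher in ONDOX (Prmt1, Prmt3, Prmt5, Prmt7, Carm1, Wdr77, Clns1a and Mat2a), 1 was called lower (Prmt2) and 1 was not called (Prmt6). A gene was called at an edgeR adjusted p below 0.05 over all 15237 genes, of which 29.4% were called in either direction, 16.0% higher and 13.4% lower. Every ONDOX tumor lay above every OFFDOX tumor for 6 of the 10 genes, against 11.4% of all genes tested, and every ONDOX tumor lay below every OFFDOX tumor for 1, against 5.41%. The median log2 fold change of the 10 genes was 1.28, beside 0.0023 for all genes tested. The genes were picked with earlier results of these tumors known, so the counts describe these 10 genes and are no independent evidence for the pathway.

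**Figure D1:**
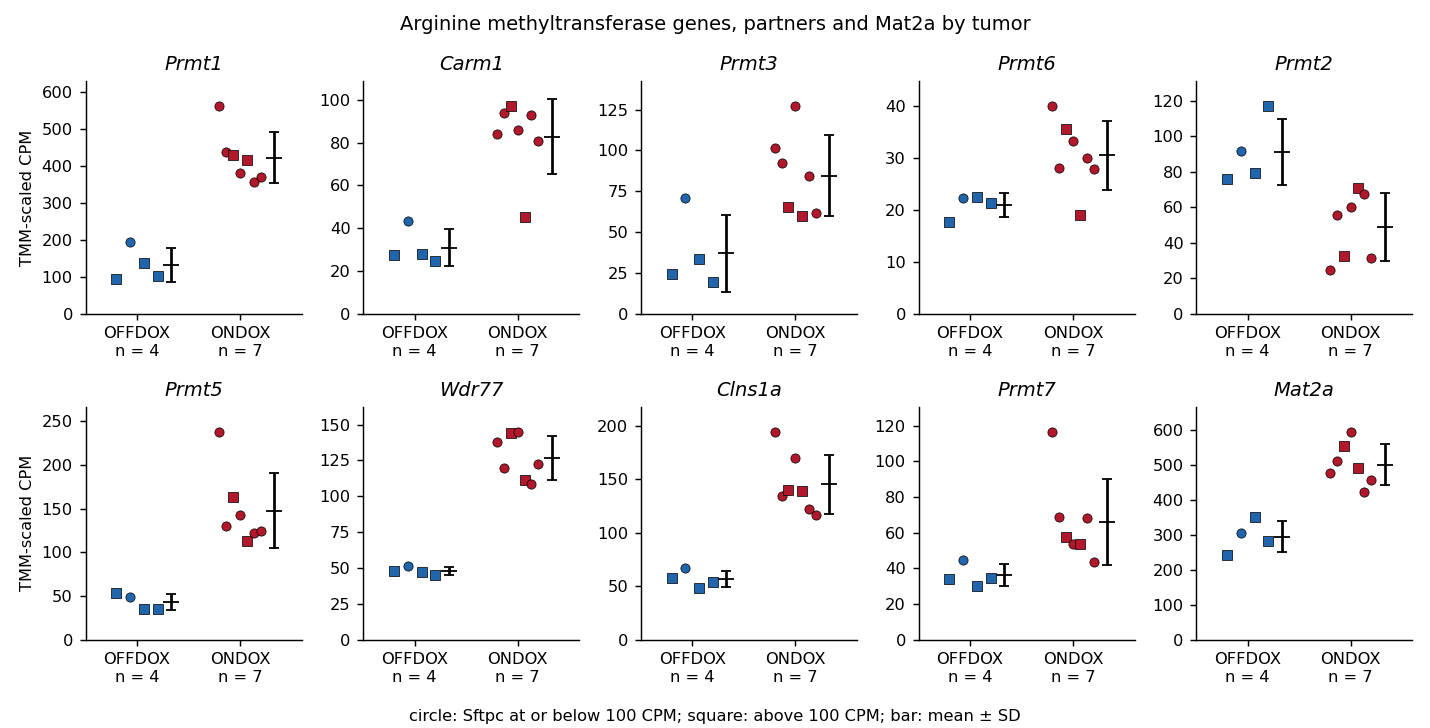
TMM-scaled CPM (vertical axis, from 0) of the 10 genes in each of the 4 OFFDOX (blue) and 7 ONDOX (red) tumors, with the mean and SD as a bar, circles for lung-poor and squares for lung-containing tumors. The groups are apart for Prmt1, Carm1, Prmt5, Wdr77, Clns1a and Mat2a, run the other way for Prmt2 and overlap for Prmt3, Prmt6 and Prmt7.

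The main type I enzyme, Prmt1, was among the strongest changes of the set. In ONDOX its lowest, median and highest levels were 357, 416 and 561 CPM, and in OFFDOX tumors 1 to 4 it was at 93.7, 194, 136 and 103 CPM. The highest ONDOX value belonged to tumor 1 and the highest OFFDOX value to tumor 2, and the groups did not overlap. By edgeR the log2 difference came to 1.68 (adjusted p = 7.69e-04, SE 0.22), a 3.20-fold rise with a 95% interval of 2.29 to 4.48-fold.

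Carm1, the type I enzyme also called Prmt4 and a coactivator that methylates histone H3, rose 2.68-fold. It was at 45.4, 85.7 and 97.1 CPM (lowest, median, highest) in ONDOX and at 27.5, 43.6, 28.0 and 24.7 CPM in OFFDOX tumors 1 to 4. The groups came close without overlapping, since ONDOX tumor 5 at 45.4 CPM stood just above OFFDOX tumor 2 at 43.6 CPM. Fitted with edgeR, the groups differed by 1.42 ± 0.24 (SE) on the log2 scale, with an adjusted p of 0.0019. With the proliferation score as a covariate the difference was 1.03 and missed the threshold (adjusted p = 0.0693). The Carm1 transcript overlaps that of Yipf2, which runs on the opposite strand. Yipf2, a Golgi membrane protein, was called lower, at 10.1 ± 2.65 against 21.5 ± 2.53 CPM (SD, n = 7 and 4), with a log2 fold change of -1.08 (adjusted p = 0.00856). It missed the threshold at -1.12 with the immune score (adjusted p = 0.0602) and at -1.02 with the proliferation score (adjusted p = 0.115).

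Prmt3, the ribosome-associated enzyme that methylates Rps2, was called higher but its groups overlapped. Its ONDOX levels were 59.7, 84.5 and 127 CPM (lowest, median, highest), and OFFDOX tumors 1 to 4 had 24.2, 71.0, 33.4 and 19.3 CPM. OFFDOX tumor 2, which had the highest proliferation markers of its group, lay inside the ONDOX range, and the other OFFDOX tumors lay below it. A log2 fold change of 1.19 resulted (adjusted p = 0.0279 by edgeR, SE 0.36). Without OFFDOX tumor 2 it was 1.73 (adjusted p = 0.00292). Without OFFDOX tumor 1, 3 or 4 it was 1.04, 1.15 and 0.99 and not called (adjusted p = 0.0836, 0.0704 and 0.0755). In the lung-poor tumors alone, where tumor 2 is the only OFFDOX tumor, it was 0.37 (adjusted p = 0.701). With the proliferation marker score as a covariate the difference was 0.44 and no longer called (adjusted p = 0.505). The lung score gave 0.66 and the immune score 0.76, also not called (adjusted p = 0.123 and 0.27). The part of proliferation or of other cells in the Prmt3 difference was not tested beyond these fits.

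Prmt6, a nuclear enzyme that methylates histone H3, did not pass the threshold. Its ONDOX levels were 19.1, 30.0 and 40.1 CPM (lowest, median, highest), and OFFDOX tumors 1 to 4 had 17.6, 22.4, 22.4 and 21.4 CPM. ONDOX tumor 5 lay within the OFFDOX range and the other 6 ONDOX tumors above it. edgeR put the log2 fold change at 0.54, with SE 0.21 and an adjusted p of 0.0701 (95% interval 0.09 to 1.004). Without ONDOX tumor 5 it was 0.62 and passed (adjusted p = 0.0268).

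Prmt2, a type I enzyme known as a coactivator of nuclear receptors, was the member that moved the other way. It was at 24.6, 55.8 and 71.0 CPM (lowest, median, highest) in ONDOX and at 75.9, 91.9, 79.4 and 117 CPM in OFFDOX tumors 1 to 4. ONDOX tumors 1, 3 and 7 were lowest, at up to 32.3 CPM, and every OFFDOX tumor lay above every ONDOX tumor. By edgeR the log2 difference came to -0.89 (adjusted p = 0.0401, SE 0.29). The call was lost when any 1 of ONDOX tumors 2, 3 and 7 or any OFFDOX tumor was left out, with log2 fold changes of -1.01 to -0.74 over all fits with 1 tumor left out. Lung and immune markers moved the same way as Prmt2, with 4 of 13 and 7 of 11 called lower in ONDOX, beside 13.4% of all genes. Prmt2 was at 91.9 CPM in the lung-poor OFFDOX tumor 2, and the highest lung-poor ONDOX tumor was at 67.8 CPM. With a lung score in the fit the log2 difference of Prmt2 was nearly the same, -0.88, with SE 0.37 (adjusted p = 0.156). With an immune score it was -0.85, with SE 0.40 (adjusted p = 0.207). The part of lung and immune cells in the Prmt2 difference was not tested beyond these fits.

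Prmt5, the main enzyme of symmetric dimethylation, had the largest log2 fold change of the 10 genes. Its ONDOX levels were 113, 130 and 238 CPM (lowest, median, highest), and OFFDOX tumors 1 to 4 had 53.1, 48.2, 35.2 and 34.6 CPM. The lowest ONDOX tumor was more than 2 times the highest OFFDOX tumor, and ONDOX tumor 1 stood above the rest of its group. Fitted with edgeR, the groups differed by 1.79 ± 0.24 (SE) on the log2 scale, with an adjusted p of 8.04e-04, a 3.45-fold rise with a 95% interval of 2.40 to 4.96-fold. With the proliferation score as a covariate it was 1.81 (adjusted p = 0.0195) and with the lung score 1.71 (adjusted p = 0.00817).

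Wdr77, the partner that Prmt5 needs for full activity, had the smallest edgeR p-value of the 10 genes. It was at 108, 122 and 145 CPM (lowest, median, highest) in ONDOX and at 47.9, 51.4, 47.0 and 45.3 CPM in OFFDOX tumors 1 to 4. The OFFDOX tumors differed by little, with an SD of 5.37% of their mean, and the ONDOX tumors by an SD of 12.1%. A log2 fold change of 1.40 resulted (adjusted p = 3.18e-04 by edgeR, SE 0.14), and Wdr77 ranked 15 by p-value among the 15237 genes. In the annotation Wdr77 overlaps Atp5f1, a subunit of the ATP synthase stalk read from the opposite strand, and their starts lie 730 bases apart. Atp5f1 rose 1.46-fold, at 281 ± 30.2 against 192 ± 8.94 CPM (SD, n = 7 and 4). Its log2 fold change of 0.55 (adjusted p = 0.00993 by edgeR, SE 0.13) was 0.24 and not called with library totals as the only scaling (adjusted p = 0.204).

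Clns1a, the Sm protein chaperone, rose together with Prmt5 and Wdr77. It was at 117, 139 and 195 CPM (lowest, median, highest) in ONDOX and at 58.1, 67.0, 48.6 and 53.6 CPM in OFFDOX tumors 1 to 4, with no overlap. edgeR put the log2 fold change at 1.36, with SE 0.18 and an adjusted p of 6.89e-04. The 3 genes of the Prmt5 complex thus had fold changes of 3.45, 2.65 and 2.56 for Prmt5, Wdr77 and Clns1a.

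Prmt7, the enzyme that leaves monomethylarginine, was called with a smaller difference. Its ONDOX levels were 43.7, 57.6 and 117 CPM (lowest, median, highest), and OFFDOX tumors 1 to 4 had 34.3, 44.9, 30.3 and 34.7 CPM. ONDOX tumor 1 was far above the others, and the lowest ONDOX tumor, number 7, lay below OFFDOX tumor 2. By edgeR the log2 difference came to 0.87 (adjusted p = 0.0258, SE 0.26). It was 0.60 without ONDOX tumor 1 (adjusted p = 0.0311) and 0.55 with library totals as the only scaling (adjusted p = 0.0773). Without OFFDOX tumor 1, 3 or 4 the adjusted p was 0.0666, 0.0729 and 0.0647. The start of Prmt7 lies next to that of Slc7a6os on the opposite strand. Slc7a6os was at 54.7 ± 13.1 against 39.1 ± 2.08 CPM (SD, n = 7 and 4) and was not called (adjusted p = 0.0779 by edgeR, with a log2 fold change of 0.48 and SE 0.19). Smpd3, a sphingomyelinase gene that overlaps Prmt7 on the opposite strand, was not called either (0.43, adjusted p = 0.138). Use of strand in the counting is not given in the sources used here. Reads from the stretch that 2 genes share can therefore not be told apart.

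Mat2a, the source of SAM, rose 1.70-fold, an estimate below those of 5 of the 7 methyltransferases (Prmt1, Prmt3, Prmt5, Prmt7 and Carm1), though differences between genes were not tested. It was at 423, 490 and 595 CPM (lowest, median, highest) in ONDOX and at 243, 305, 350 and 281 CPM in OFFDOX tumors 1 to 4. The groups did not overlap, and the spread within each was small, with an SD of 11.6% of the mean in ONDOX and 15.2% in OFFDOX. Fitted with edgeR, the groups differed by 0.76 ± 0.15 (SE) on the log2 scale, with an adjusted p of 0.00415 and a 95% interval of 1.36 to 2.13-fold. With library totals as the only scaling it was 0.45 (adjusted p = 0.0515), and with the proliferation score as a covariate 0.53 (adjusted p = 0.129).

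**Figure D2:**
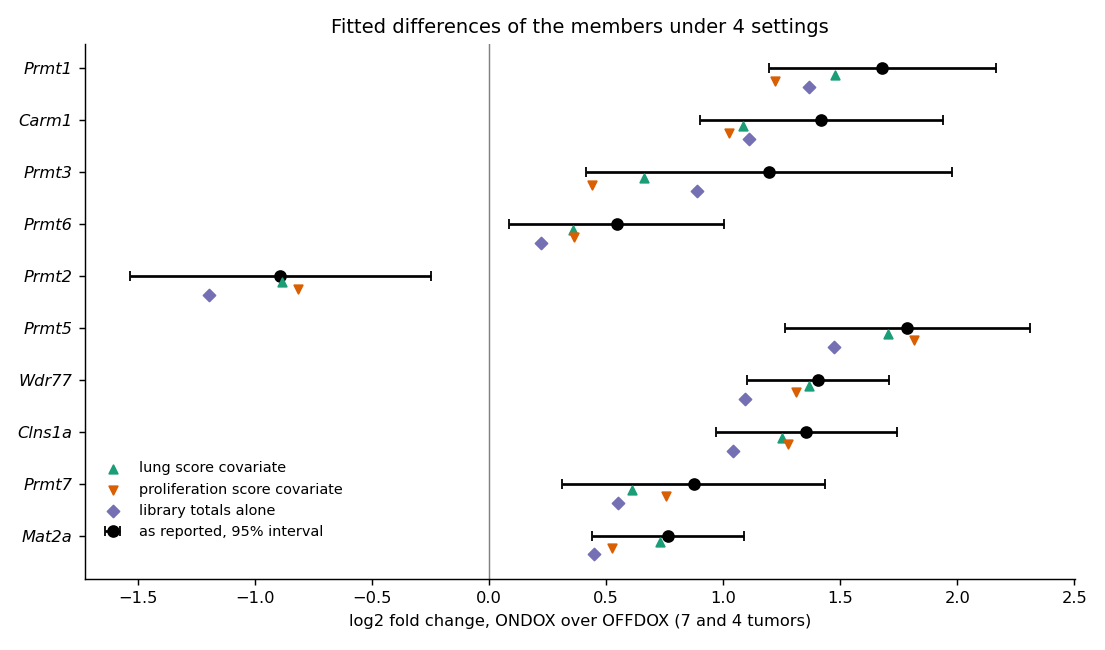
Log2 fold change of ONDOX over OFFDOX (horizontal axis) for the 10 genes, with the 95% interval as a bar and the estimates with a lung score, a proliferation score or library totals as symbols below it. Prmt1, Prmt5, Carm1, Wdr77 and Clns1a stay at or above 1.03 in each of these fits. Prmt3 falls to 0.44 with the proliferation score and Mat2a to 0.45 with library totals.

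Scaling and cell composition moved these values to different degrees. Relative to TMM, library totals moved the log2 fold changes of all genes by a median of -0.31 and upper quartile factors by -0.21. Over all genes TMM gave 2437 higher and 2038 lower, upper quartile factors 1697 and 2894, and library totals 1317 and 3347. With library totals 5 genes were called higher (Prmt1, Prmt5, Carm1, Wdr77 and Clns1a) and Prmt2 stayed lower, at -1.20. With the lung score or the immune score as a covariate 6 genes were called higher, those 5 and Mat2a, and with the proliferation score 4, without Carm1 and Mat2a. Leaving out OFFDOX tumor 1, 3 or 4 gave 6 called higher in each case, since Prmt3 and Prmt7 missed the threshold. Over all genes these fits called 1847 of 15392, 1784 of 15386 and 1674 of 15418 higher. In the lung-poor tumors alone (5 ONDOX, 1 OFFDOX) edgeR called 0 of the 10 and 0 of all genes, with 6 of the 10 and 14.5% of all genes at an unadjusted p below 0.05. In the lung-containing tumors alone (2 ONDOX, 3 OFFDOX) it also called 0 of the 10 and 0 of all genes, with 8 of the 10 and 24.8% of all genes at an unadjusted p below 0.05. In the lung-poor fit the lone OFFDOX tumor is assumed to vary like the ONDOX tumors. Within these subsets the log2 fold change of Prmt5 was 1.63 and 1.78, that of Wdr77 1.27 and 1.47, and that of Prmt1 1.10 and 1.95.

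The balance between partners was read from count ratios within each tumor, which do not depend on scaling. The log2 ratio of Prmt5 to Prmt1, the main type II and type I enzymes, was -1.54 ± 0.22 in ONDOX (SD, n = 7) and -1.59 ± 0.55 in OFFDOX (n = 4). The ONDOX tumors spanned -1.88 to -1.24 and lay within the OFFDOX span of -2.003 to -0.82, and the difference of 0.05 did not pass a two-sided exact permutation test (adjusted p = 0.852 over the 3 ratios tested). OFFDOX tumor 1 had the highest value, and without it the difference was 0.30 (exact permutation, adjusted p = 0.1). The log2 ratio of Prmt5 to Wdr77 was 0.18 ± 0.28 in ONDOX and -0.19 ± 0.27 in OFFDOX, a difference of 0.37 that missed the threshold after adjustment (exact permutation p = 0.0424, adjusted p = 0.0636). Without OFFDOX tumor 1 it was 0.48 and passed (exact permutation, adjusted p = 0.025), and without OFFDOX tumor 3 or 4 it was 0.30 and 0.31 (exact permutation, adjusted p = 0.312 and 0.3). ONDOX tumor 1 stood out at 0.79, while the other ONDOX tumors were at -0.02 to 0.18.

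The methionine adenosyltransferase subunits separated. Mat2b, the regulatory subunit, was at 49.98 ± 8.72 CPM in ONDOX and 59.5 ± 6.79 CPM in OFFDOX (SD, n = 7 and 4) and was not called (adjusted p = 0.273 by edgeR, with a log2 fold change of -0.25 and SE 0.17). The log2 ratio of Mat2a to Mat2b was 3.33 ± 0.24 in ONDOX and 2.30 ± 0.38 in OFFDOX. Every ONDOX tumor (2.92 to 3.65) lay above every OFFDOX tumor (1.95 to 2.81), with a difference of 1.03 (two-sided exact permutation p = 0.00303, the smallest that 330 arrangements can give, adjusted p = 0.00909). Leaving out 1 tumor at a time gave differences of 0.92 to 1.20, and the lung-containing tumors alone gave 1.06.

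**Figure D3:**
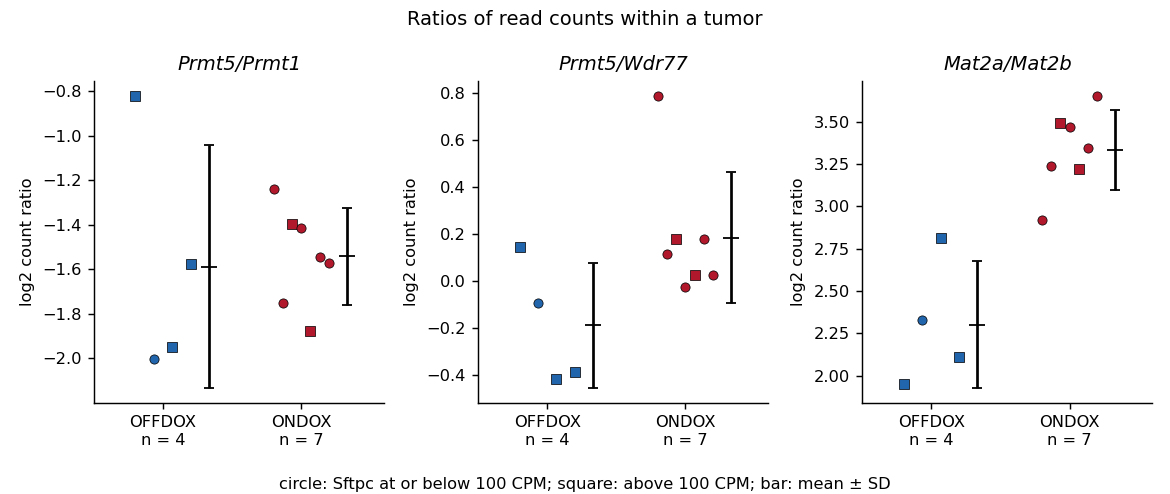
Log2 ratios of read counts within a tumor (vertical axes) for Prmt5 over Prmt1, Prmt5 over Wdr77 and Mat2a over Mat2b in 4 OFFDOX (blue) and 7 ONDOX (red) tumors, with mean and SD as a bar. The groups overlap for the first 2 ratios and are apart for Mat2a over Mat2b.

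Per kilobase of exon, the order of the genes was led by Prmt1 and Mat2a in both groups. In ONDOX, Prmt1 was at 185 ± 30.1 CPM per kb and Mat2a at 148 ± 17.2, whose ranges (157 to 246 and 125 to 176) overlapped. Clns1a followed at 96.7 ± 18.3 and Prmt5 at 54.9 ± 16.0 CPM per kb. Wdr77 (34.5 ± 4.17) and Prmt3 (33.8 ± 9.88) did not differ beyond their spread, nor did Carm1 (24.6 ± 5.21) and Prmt2 (22.9 ± 8.90). Prmt7 (16.9 ± 6.14) and Prmt6 (7.29 ± 1.59 CPM per kb) were lowest, with n = 7 in each case. In OFFDOX (n = 4) Mat2a was first, at 86.9 ± 13.2 CPM per kb, Prmt1 second at 57.8 ± 19.8, and Prmt2 next at 42.5 ± 8.73, with a range of 35.4 to 54.7 that overlapped that of Clns1a (32.3 to 44.5). Prmt2 thus took place 3 of 10 in OFFDOX and place 8 in ONDOX, and Prmt6 was lowest in both.

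Of 7 other arginine methyltransferases and partners tested, 1 was called higher and 1 lower, near the 16.0% and 13.4% of all genes, with a median log2 fold change of -0.08. Riok1, the kinase-like adaptor that competes with Clns1a for Prmt5, was at 70.5 ± 6.29 against 37.0 ± 6.16 CPM, a log2 fold change of 0.93 with SE 0.15 (adjusted p = 0.0017 by edgeR). Btg2, an antiproliferative protein that binds Prmt1, was 2.28-fold higher in OFFDOX, at 73.6 ± 30.7 against 168 ± 49.4 CPM with overlapping groups (adjusted p = 0.0126) and a log2 fold change of -1.19. It was -1.23 but missed the threshold once the lung score was included (adjusted p = 0.0581), and likewise -1.16 with the immune score (adjusted p = 0.0808) and -1.13 with the proliferation score (adjusted p = 0.15). Prmt10 (now Prmt9) and 2410091C18Rik (now Ndufaf7, the methyltransferase of respiratory complex I) had log2 fold changes of 0.35 and 0.33 and were not called (adjusted p = 0.27 and 0.143).

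Of 14 other tested SAM and methionine cycle genes, 1 was called higher and 0 lower by edgeR, beside 16.0% and 13.4% of all genes. An unadjusted p below 0.05 was found for 3 of them, and for 42.9% of all genes tested. The median log2 fold change was 0.33. Whether so short a list differs from all genes was not tested. The called gene was Ahcy, which clears the S-adenosylhomocysteine left by every methylation, at 208 ± 50.2 against 85.0 ± 23.3 CPM, a log2 fold change of 1.29 with SE 0.23 (adjusted p = 0.00273 by edgeR). Its ONDOX tumors (143 to 292 CPM) all lay above its OFFDOX tumors (63.2 to 118 CPM). Ahcy was no longer called with the immune score (adjusted p = 0.0506) or the proliferation score (adjusted p = 0.1) as a covariate. Ahcyl1, a relative of Ahcy, was at a log2 fold change of 0.42 (adjusted p = 0.0538), and Mettl16, which methylates the Mat2a transcript, at 0.50 (adjusted p = 0.113). By count, without OFFDOX tumor 2, 3 of these genes were called higher, and with library totals 3 were called lower. Over all genes these fits gave 2955 higher of 15506 and 3347 lower of 15237.

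Salvage of methionine and the use of SAM for polyamines had 3 of 7 tested genes higher and 0 lower. Of all genes, 16.0% were higher and 13.4% lower. The median log2 fold change of the list was 0.55. Srm, spermidine synthase, was at 242 ± 133 against 42.7 ± 16.5 CPM, a log2 fold change of 2.50 with SE 0.48 (adjusted p = 0.0036 by edgeR). Sms, spermine synthase, rose 3.23-fold, and Mtap, which returns their by-product methylthioadenosine to methionine, rose 2.47-fold. With the proliferation score as a covariate Sms was still called, while Mtap, at 1.18 against 1.31 without the score, and Srm, at 1.97 against 2.50, missed the threshold (adjusted p = 0.0823 and 0.109). Mri1, the next salvage enzyme, had a log2 fold change of 0.55 (adjusted p = 0.159). Amd1, which decarboxylates SAM, held 6 reads in all ONDOX and 2 in all OFFDOX tumors and was not tested, and its near-identical copy Amd2 was listed at 0 in every tumor. Reads that align to several places were not counted, at 13.8% to 20.9% of the records in ONDOX and 9.15% to 11.9% in OFFDOX.

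Among transporters that carry methionine, 1 of 7 was called higher and 1 lower, near the 16.0% and 13.4% of all genes, with a median log2 fold change of 0.39. Slc43a2, a uniporter of large neutral amino acids, was 2.14-fold higher in OFFDOX, at 33.3 ± 5.40 against 71.2 ± 6.18 CPM, a log2 fold change of -1.10 with SE 0.15 (adjusted p = 9.9e-04 by edgeR), with no overlap between the groups. Slc38a2, a sodium-coupled transporter, was higher with a log2 fold change of 0.73 (adjusted p = 0.02) and missed the threshold without OFFDOX tumor 1 (adjusted p = 0.0554) or 4 (adjusted p = 0.0629). Its estimate was 0.42 with library totals (adjusted p = 0.123), 0.46 with the lung score (adjusted p = 0.15), 0.45 with the immune score (adjusted p = 0.263) and 0.27 with the proliferation score (adjusted p = 0.476). Slc7a5, the main exchanger of large neutral amino acids, had a log2 fold change of 1.17 (adjusted p = 0.0945). OFFDOX tumor 2 held the highest Slc7a5 level of its group, at 138 CPM, and without that tumor the log2 fold change was 2.09 (adjusted p = 0.00352). Slc38a1, at 0.74, was not called (adjusted p = 0.058).

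Genes for Sm proteins and the SMN complex were largely called higher, and shares were not compared between lists by a test. The list was not limited to proteins that carry methylarginine. Of 19 tested Sm protein and SMN complex genes, 14 were called higher and 0 lower, beside 16.0% and 13.4% of all genes. For 11, every ONDOX tumor lay above every OFFDOX tumor, beside 11.4% of all genes. The median log2 fold change was 0.92. Snrpd1, a Sm core protein that Prmt5 methylates, was at 191 ± 31.7 against 58.7 ± 14.7 CPM, a log2 fold change of 1.70 with SE 0.21 (adjusted p = 5.62e-04 by edgeR). Snrpe rose 2.60-fold, Strap, which joins the SMN complex, 2.62-fold and Snrpg had a log2 fold change of 1.32. With the lung score as a covariate 7 were called higher, with the proliferation score 5 and with library totals 9. Over all 15237 genes the lung score gave 1129 higher, the proliferation score 685 and library totals 1317. Without OFFDOX tumor 1 or 4 the counts in the list were 8 and 9, beside 1847 of 15392 and 1674 of 15418 over all genes.

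Of 25 tested genes for other known substrates, 19 were called higher and 0 lower, beside 16.0% and 13.4% of all genes. Their median log2 fold change was 1.14. Ncl, nucleolin of the nucleolus, was at 2024 ± 558 against 474 ± 88.5 CPM, a log2 fold change of 2.10 with SE 0.25 (adjusted p = 5.00e-04 by edgeR). Fbl, fibrillarin, rose 4.01-fold, Serbp1 2.89-fold and Pabpc1, the poly(A)-binding protein that Carm1 methylates, 2.77-fold. With the lung score 12 were called higher, and with the proliferation score 9 were higher and 1 lower. Over all 15237 genes these scores gave 1129 and 685 higher, and 509 and 292 lower. The list includes ribosomal proteins and abundant RNA-binding proteins with many pseudogene copies, whose levels are uncertain where reads align to several places.

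The list of methylarginine readers, with related genes such as Padi1, had 4 of 12 tested genes higher and 1 lower, beside 16.0% and 13.4% of all genes. Their median log2 fold change was 0.58. Tdrd3, a Tudor-domain reader of asymmetric dimethylarginine, rose 2.24-fold (adjusted p = 0.00298 by edgeR), and Spin1, a histone reader, 1.90-fold. With the proliferation score Spin1 was at a log2 fold change of 0.70 and missed the threshold (adjusted p = 0.0614). Smndc1, the splicing factor SPF30, had a log2 fold change of 0.92 (adjusted p = 0.0216) and missed the threshold without ONDOX tumor 1 (adjusted p = 0.0682) or OFFDOX tumor 4 (adjusted p = 0.0629). It also missed it with upper quartile factors (0.69, adjusted p = 0.0578), library totals (0.60, adjusted p = 0.0804), the lung score (0.98, adjusted p = 0.103), the immune score (0.99, adjusted p = 0.147) and the proliferation score (1.15, adjusted p = 0.116). Padi1, a peptidylarginine deiminase, was the gene called lower, at 0.549 ± 0.406 against 4.43 ± 2.77 CPM, and its groups overlapped. Its log2 fold change of -2.99 (adjusted p = 0.0181) was -2.68 and missed the threshold without OFFDOX tumor 4 (adjusted p = 0.0546). It was -3.12 with the lung score (adjusted p = 0.0592), -3.34 with the immune score (adjusted p = 0.0591) and -3.42 with the proliferation score (adjusted p = 0.0867), also without passing.

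Methyltransferases that use SAM on other targets gave a comparison class. Of 32 tested, 18 were called higher and 2 lower, beside 16.0% and 13.4% of all genes. The median log2 fold change was 0.82, between that of all genes tested and that of the 10 genes. Rnmt, the mRNA cap methyltransferase, was at 136 ± 16.9 against 42.4 ± 9.36 CPM, a log2 fold change of 1.69 with SE 0.18 (adjusted p = 3.43e-04 by edgeR). Suv39h2, which methylates histone H3 lysine 9, rose 6.31-fold, Nsun2, an RNA cytosine methyltransferase, 3.49-fold and Ehmt1 1.88-fold. Nsun2 (log2 fold change 1.64, adjusted p = 0.069) and Ehmt1 (0.60, adjusted p = 0.0532) missed the threshold with the proliferation score. With the proliferation score as a covariate 3 were called higher and 0 lower by edgeR, beside 685 and 292 of all 15237 genes. In that fit 15 had an unadjusted p below 0.05, beside 22% of all genes. With library totals 11 were called higher and 3 lower, beside 1317 and 3347 of all 15237 genes.

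**Figure D4:**
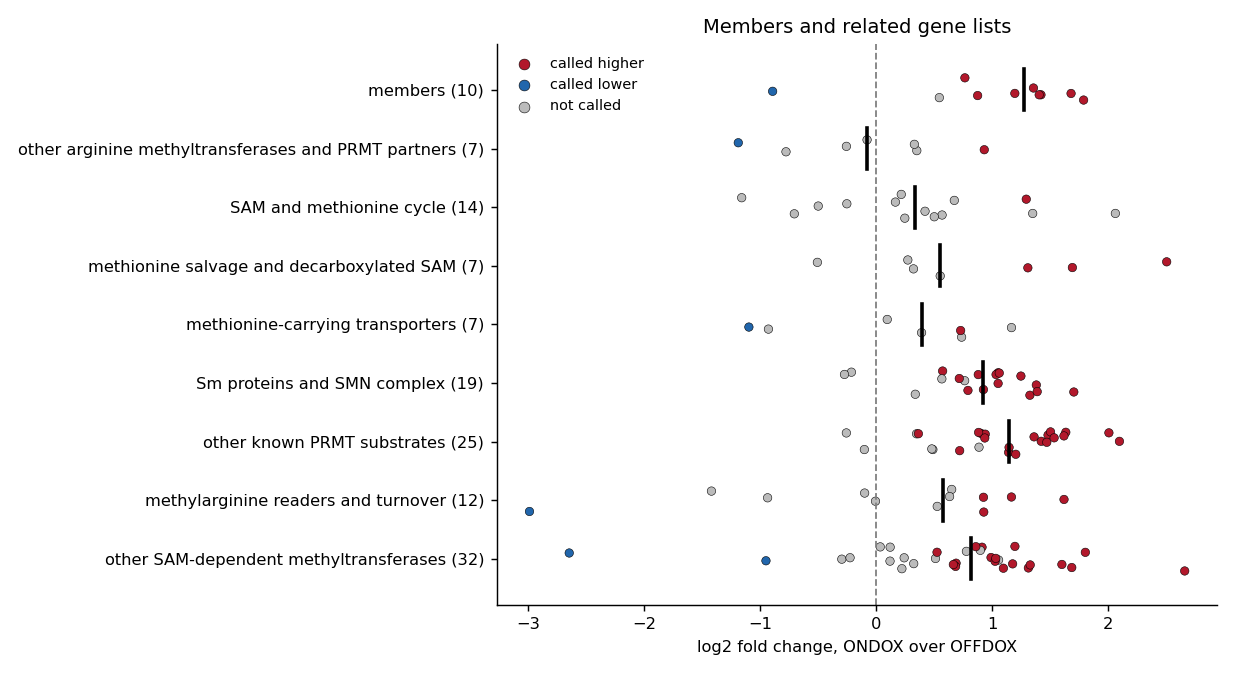
Log2 fold change of ONDOX over OFFDOX (horizontal axis) of each tested gene in the 10-gene set and 8 related lists, with list sizes in brackets, called genes in red or blue, list medians as black bars and the median of all genes as a dashed line. The medians run from -0.08 for other arginine methyltransferases and partners to 1.28 for the 10 genes.

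Genes with a profile like that of Prmt1, Prmt5 or Mat2a were searched for among the tested genes other than the 10. Likeness was the mean absolute difference of centred log2 CPM over the 11 tumors. For Prmt1 the 3 nearest genes were Bri3bp (0.10), Spast (0.11) and Nme1 (0.14), against a median of 0.89 over all genes. For Prmt5 they were Tcp1 (0.12), Ipo4 (0.13) and Supt16h (0.13), against a median of 0.91. For Mat2a they were Crebzf (0.09), Psma7 (0.10) and Nsmce2 (0.10), against a median of 0.57. Among the other members, Wdr77 was nearest to Prmt5 (0.21), Prmt5 nearest to Prmt1 (0.25) and Prmt6 nearest to Mat2a (0.22), while Prmt2 was farthest from each (1.25, 1.27 and 0.84 from Prmt1, Prmt5 and Mat2a).

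Within ONDOX, Mycn itself ranged from 36.5 to 171 CPM, and the 10 genes were compared with it as log2 CPM. These are counts over the mouse gene. The species of the transgene is not given, so how fully they measure it is not known. Prmt6 followed Mycn most closely over the 7 tumors, with Pearson r = 0.92 (exact permutation p = 0.00278, adjusted p = 0.0278 over the 10 genes). Spearman rho was 0.86 (exact permutation p = 0.0238, adjusted p = 0.238). Mycn was lowest in tumor 5 and highest in tumor 1, which had the highest and lowest TMM factors in ONDOX (1.01 and 0.835). Tumor 5 also had the most alveolar and club cell markers in ONDOX, and the part of tumor makeup in this r was not tested. Without ONDOX tumors 2 and 5, the 2 farthest from the median of Mycn, r was 0.78, and leaving out 1 tumor at a time gave 0.82 to 0.98, of which only the fit without tumor 6 passed the threshold. For Prmt5, r was 0.71 (exact permutation p = 0.0637, adjusted p = 0.222) and rho 0.61 (exact permutation p = 0.167), with r = 0.67 without those 2 tumors. For Carm1, r was 0.72 (exact permutation p = 0.0665, adjusted p = 0.222) but rho 0.32 (exact permutation p = 0.498), and r was 0.43 without the 2 tumors. Mat2a showed r = -0.01 (exact permutation p = 0.975) and rho = -0.25 (exact permutation p = 0.595). The other 6 genes had r between -0.48 (Prmt2) and 0.55 (Prmt7), with adjusted exact permutation p-values of at least 0.387. The groups form separate clusters in Mycn, so no correlation over all 11 tumors is given.

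**Figure D5:**
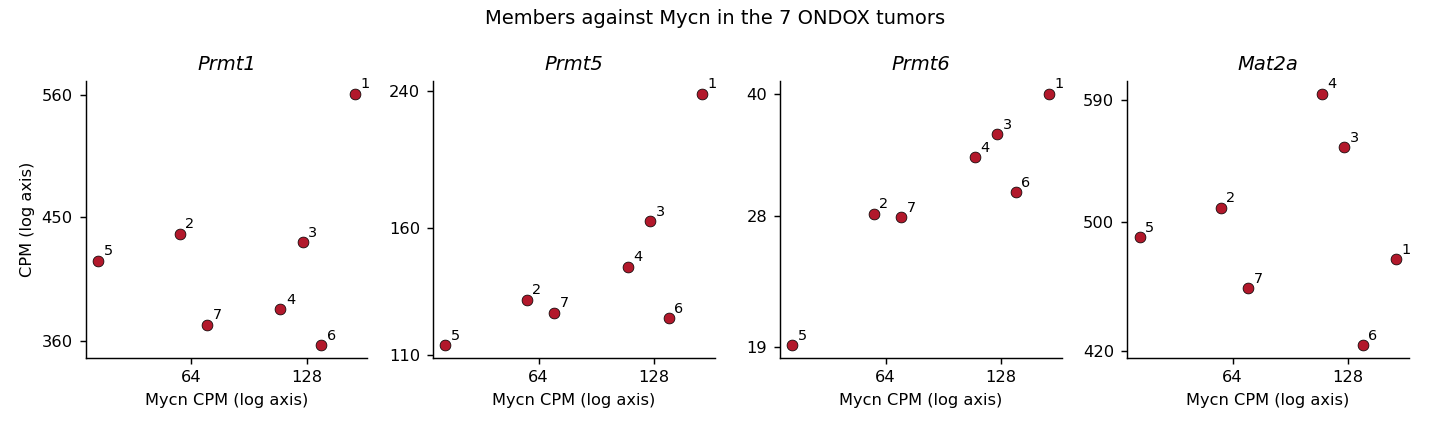
CPM of Prmt1, Prmt5, Prmt6 and Mat2a (vertical log axes) against CPM of Mycn (horizontal log axis) in the 7 ONDOX tumors, numbered by replicate. Prmt6 rises from 19.1 CPM in tumor 5 to 40.1 CPM in tumor 1, while Mat2a has r = -0.01 with Mycn.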

How the data were processed

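Poly(A) RNA of 11 mouse tumors was sequenced, 7 taken on doxycycline (ONDOX) and 4 taken after 7 days off it (OFFDOX), grouped by the labels. For every tumor the authors deposited 1 table of counts, whole numbers of reads assigned to each gene. Per the submitters' processing notes, HTSeq 0.6.1, TopHat2 2.0.8b and bcl2fastq 1.8.4 were used, and mm9 was the mouse build. The annotation and the strand setting of the counting are not given in the sources used here. The 5 HTSeq summary rows of each table, 30.6% to 38.2% of its records, were left out. Gene counts per tumor ranged from 8951733 to 13123838, and the biological coefficient of variation was 53.7%, which limits precision more than depth.

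Counts were filtered with filterByExpr (minimum count 10, minimum total 15), scaled by TMM and fitted over all 15237 remaining genes with edgeR 4.0.16 quasi-likelihood tests (robust, R 4.3.3), with Benjamini-Hochberg adjustment and a threshold of 0.05. Unless another test is named, every adjusted p is from this test. SE was derived from the fold change and F, and intervals are 95%. Values given as mean ± SD are CPM over 7 and 4 tumors. Levels per kilobase used exon lengths of GENCODE M21. Ratios within tumors (0.5 added to each count) and correlations were tested with exact two-sided permutation tests. Alternatives were DESeq2 1.42.0, limma 3.58.1 voom, other scalings and filters, a replicate block, marker scores as covariates, subsets of tumors and leaving out each tumor. The fits were tested on simulated data. Every pair of tumors within a group differed by more than sampling noise.

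The 10 genes and all lists were chosen with earlier results of these data known. All 10 were named, and from each list up to 4 tested genes with the smallest p, plus genes that overlap a member or start within 1000 bases of it, and the 3 genes most like Prmt1, Prmt5 and Mat2a. Unnamed predicted genes were left out. Not every gene this rule names is reported here.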

Additional observations from a re-analysis of the deposited data

Results flagged for a closer look

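Values of 46 groups of samples were checked for a tumor far from the rest of its group, and 11 were found. The cutoff is set to flag about 1 in 20 groups of independent, normally distributed values. CPM and marker sums need not be of that kind, so the 11 are not read as an excess over chance. ONDOX tumor 1, which also had the highest Mycn, stood above its group for 3 of the 10 genes. These flags rest on TMM-scaled CPM, and other scalings were not tried for them. The tumor had the lowest TMM factor of all (0.835) and the highest share of reads aligning to several places (20.9%). It held 561 CPM of Prmt1 against 436 CPM in the next tumor, 238 CPM of Prmt5 against 163 CPM, and 117 CPM of Prmt7 against 68.5 CPM. Its log2 ratio of Prmt5 to Wdr77 was 0.79, with the next tumor at 0.18. ONDOX tumor 5, which had the lowest Mycn of its group, had the lowest Carm1, at 45.4 CPM against 80.9 CPM in the next tumor. The same tumor had the highest sum of alveolar and club cell markers in ONDOX, 3505 CPM against 1084 CPM in the next.

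The other values far from their group were marker sums. OFFDOX tumor 1 held 33715 CPM of alveolar and club cell markers, against 5533 CPM in the next OFFDOX tumor. Skeletal muscle markers reached 113 CPM in ONDOX tumor 2, with the next at 13.0 CPM, and 487 CPM in OFFDOX tumor 2, with the next at 18.4 CPM. Hepatocyte markers were at 22.6 CPM in ONDOX tumor 7, against 4.16 CPM in the next tumor. Proliferation markers were highest in ONDOX tumor 2, at 5521 CPM against 3905 CPM in the next. The part of these tumors' makeup in the values of the 10 genes was not tested beyond the fits with marker scores.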

How the results depend on the processing

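No fit turned the direction of any of the 10 genes between ONDOX and OFFDOX. The count called higher, 8 as reported, was 5 with library totals, 4 with the proliferation score, 5 when the fold had to exceed 1.5, 0 in the lung-poor and 0 in the lung-containing tumors alone, and 6 to 9 with 1 tumor left out. The 1 gene called lower (Prmt2) was 0 with the lung, immune or proliferation score, in either subset, above 1.5-fold and at an adjusted p below 0.01, and 0 to 1 with 1 tumor left out. With 1 tumor left out, 6 to 8 genes had every ONDOX tumor above every OFFDOX tumor and in each case 1 gene showed the reverse. Over the 8 related lists, 61 genes were called higher: 38 with the lung score, 32 with the immune score, 20 with the proliferation score, 0 in either subset, 32 above 1.5-fold, 40 at an adjusted p below 0.01, and 43 to 72 with 1 tumor left out. The 5 called lower became 10 with library totals, 3 with the replicate block, 1 with the lung or immune score, 2 with the proliferation score, 0 in either subset, 2 above 1.5-fold, 1 at an adjusted p below 0.01, and 2 to 6 with 1 tumor left out. In each case the cause was not tested, except that the subsets hold fewer tumors.

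In the lung-containing tumors alone the log2 ratio of Prmt5 to Prmt1 differed by -0.19, and that of Mat2a to Mat2b by 1.06 without passing (exact permutation, adjusted p = 0.45, smallest unadjusted p possible 0.1). With 1 tumor left out, the differences spanned -0.093 to 0.30 for Prmt5 to Prmt1, 0.27 to 0.48 for Prmt5 to Wdr77 and 0.92 to 1.20 for Mat2a to Mat2b. The 1 gene related to Mycn within ONDOX (Prmt6) was 0 without tumors 2 and 5 and 0 to 1 with 1 tumor left out. Without tumors 2 and 5, too few orderings of the tumors remain for a lone gene to pass after adjustment, whatever its r. That 0 therefore cannot show whether the relation of Prmt6 to Mycn was lost, and its r there was 0.78. The sign turned for Slc7a5 in the lung-poor tumors (-0.038), for Smpd3 with the immune score (-0.035), for r of Prmt1 with Mycn without ONDOX tumor 1 (-0.42; 0.50 at most, without ONDOX tumor 6), and for r of Mat2a with size factors of DESeq2 (0.013) and without ONDOX tumor 1 (0.09), 2 (0.02) or 6 (0.28).

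Over all genes, 2437 higher and 2038 lower calls became 1129 and 509 with the lung score, 961 and 547 with the immune score, 685 and 292 with the proliferation score, 796 and 660 above 1.5-fold, 1187 and 516 at an adjusted p below 0.01, and 0 and 0 in either subset. With 1 tumor left out, calls over all genes ranged from 1674 to 2955 higher and from 1015 to 2438 lower. Same-numbered tumors correlated at -0.16, 0.46, -0.08 and 0.26, so the numbers were not taken to pair tumors. Of the 4 OFFDOX tumors, 2 correlated best with their own number. The replicate block left 8 of the 10 genes higher and 1 lower, 1872 higher and 1152 lower over all genes, and 9 in place of 14 higher among the Sm and SMN complex genes. The block also ended the calls of Yipf2 (adjusted p = 0.0714), Slc38a2 (0.0701), Padi1 (0.13) and Atp5f1 (0.105). With 4 OFFDOX tumors of uneven makeup, the precision is limited.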
